A study of Mus musculus with 12 samples.

Results

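The 8 genes described here encode small GTPases of the Ras and Rap groups and the Sos exchange factors, which load Ras with GTP. They are Rap1a and Rap1b, Hras and Nras, Rras and Rras2, and Sos1 and Sos2, and each was found by its symbol among the 22380 protein-coding genes of the annotation, where Hras is listed as Hras1. For each gene the peaks of H3K9me2 and H3K9me3 were collected within 3 kb of any of its annotated transcription start sites, called promoter peaks here, and in the rest of the gene body. The genes were chosen by the presence of promoter peaks in these same lists, so presence and scores are given as a description and were not tested. The libraries came from wild-type C57BL/6J mice fed a high-fat diet (HFD) or a standard chow diet (SCD) for 12 weeks from 6 weeks of age, from the heat-producing brown adipose tissue (BAT) and from subcutaneous white adipose tissue (WAT), a store of fat. With no further genotype or treatment, the groups were HFD BAT, SCD BAT, HFD WAT and SCD WAT, each with 1 library for H3K9me2, 1 for H3K9me3 and 1 input, in all 12 libraries, of which the 8 immunoprecipitated ones have a peak list. The number of mice behind a library is not given in the sources used here.

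Ras and Rap proteins are switches that are on with GTP bound and off with GDP bound. Receptor tyrosine kinases, the insulin receptor among them, recruit Sos proteins to the membrane through the adaptor Grb2, and Sos exchanges the GDP of Ras for GTP. Ras then starts the Raf, MEK and ERK kinase chain, a branch of MAPK signaling, whereas Rap1 is better known for its control of integrin adhesion and of cell contacts and is switched on by other exchange factors, some of which answer to cAMP. In adipose tissue these routes serve insulin and growth factor signals, and cAMP carries the adrenergic signal of brown fat. Methylation of lysine 9 of histone H3 is known as a mark of repressed chromatin, with H3K9me3 typical of repeats and heterochromatin.

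Each peak has a position and a score, which was read as 10 times the negative log10 of its p-value, and its lowest value was 50 in 6 lists. The SCD lists of WAT reach down to a score of 30, and for that reason a peak was called only at a score of at least 50 unless stated. At this score the lists held 43173 peaks in HFD against 24887 in SCD for BAT H3K9me2, 52758 in HFD against 26835 in SCD for BAT H3K9me3, 21976 in HFD against 21746 in SCD for WAT H3K9me2, and 29190 in HFD against 8350 in SCD for WAT H3K9me3. The score grows with sequencing depth, which is unknown, and is not scaled between libraries, so no fold change between diets is given, and a missing peak means only that none was detectable at the depth reached. Whether fewer marked cells or less of the mark per cell lay behind a lower score cannot be told apart in whole tissue. The lists hold no expression values, so the tissues were not checked against marker genes. The methods name an antibody against trimethylated lysine 9 for H3K9me2 and one against dimethylated lysine 9 for H3K9me3, and the marks are called here as the libraries are labelled.

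In BAT, the promoters of Rap1a and Sos2 had peaks of neither mark in HFD-fed mice, against peaks of both marks in SCD-fed mice. For H3K9me2, 4 of the 8 genes had a promoter peak in the HFD list (45.6% of all protein-coding genes had one) and 6 in the SCD list (43.3% of all genes). The HFD-only gene was Rras, 1 of 8 beside 13.8% of all genes, and the SCD-only genes were Rap1a, Rap1b and Sos2, 3 of 8 beside 11.5% of all genes. Hras, Rras2 and Sos1 had overlapping peaks in both diets. The list of HFD-fed mice was the longer one, yet its peaks at Hras, Rras, Rras2 and Sos1 scored 51.2 to 58.9, near its lowest score. When both diets were given the same number of highest-scoring peaks, 0 of 8 genes were HFD-only (7.51% of all genes) and 6 of 8 were SCD-only (19.1% of all genes), namely Rap1a, Rap1b, Hras, Rras2, Sos1 and Sos2. With a score of at least 80, Sos2 had no BAT H3K9me2 peak in either diet, and the SCD-only genes were Rap1a, Rap1b, Rras2 and Sos1 (13.3% of all genes).

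For BAT H3K9me3, 5 of the 8 genes had a promoter peak in the HFD list (58.9% of all genes) and 7 in the SCD list (52.3% of all genes). Of the 8 genes, 0 were HFD-only, beside 8.83% of all genes, and Rap1a and Sos2 were SCD-only, 2 of 8 beside 2.16% of all genes. Rap1b, Hras, Rras, Rras2 and Sos1 had overlapping peaks in both diets. Rap1a and Sos2 were also the SCD-only genes with a score of at least 80 (1.92% of all genes) and with equal numbers of peaks (6.42% of all genes). Because these genes were picked with these lists in view, nothing is read from their shares beside those of all genes.

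In WAT, some of these genes had H3K9me2 promoter peaks in both diets, and an H3K9me3 promoter peak was called for Rras2 and Sos1 only, in the HFD list. For H3K9me2, 5 of the 8 genes had a promoter peak in the HFD list (39.3% of all genes) and 6 in the SCD list (42.3% of all genes). Rras was HFD-only (1 of 8, beside 7.16% of all genes), Nras and Rras2 were SCD-only (2 of 8, beside 10.2% of all genes), and Rap1b, Hras, Sos1 and Sos2 had overlapping peaks in both diets. For H3K9me3, Rras2 and Sos1 had a promoter peak in the HFD list (2 of 8, beside 35.9% of all genes) and 0 of 8 in the SCD list (6.96% of all genes). Both genes were thus HFD-only (2 of 8, beside 30.6% of all genes), and 0 of 8 were SCD-only (1.68% of all genes). These counts are near the shares of all genes, so nothing particular to the 8 genes is read from them. With equal numbers of peaks in both diets, 0 of 8 were HFD-only (8.97% of all genes). In the deposited SCD list, which goes below a score of 50, Sos1 also had a peak, with a score of 49.4. With that list 1 gene, Rras2, was HFD-only (23.9% of all genes).

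**Figure D1:**
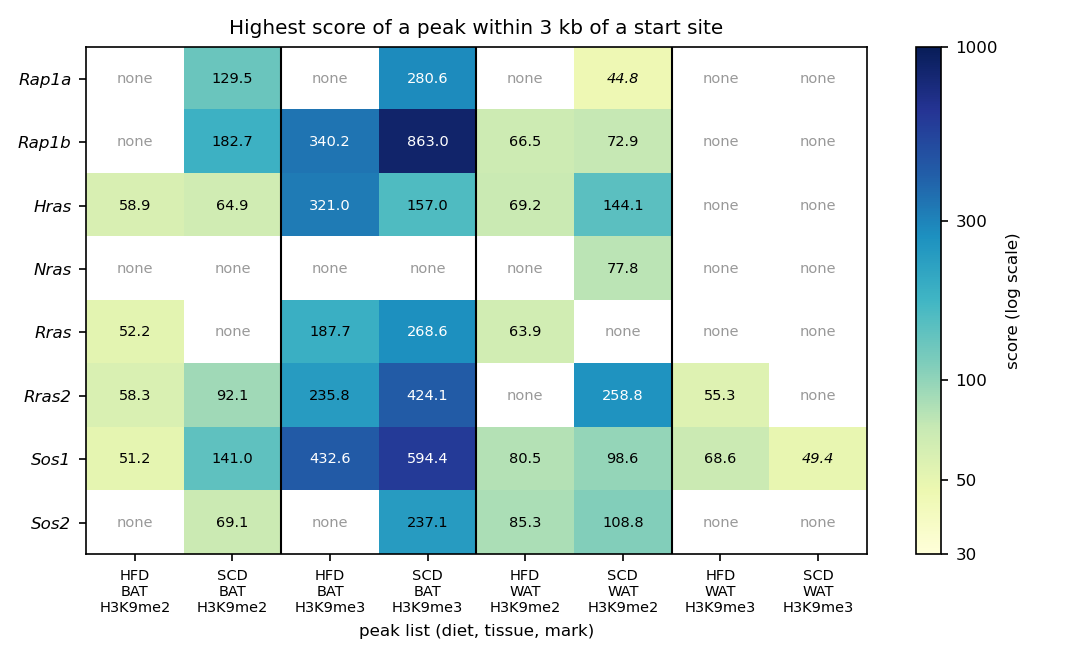
Highest score of a promoter peak for each gene (rows) in each of the 8 peak lists (columns, diet, tissue and mark), with colour on a log scale and values under 50 in italics. Rap1a and Sos2 show no value in the HFD lists of BAT and a value in both SCD lists of BAT, and Nras shows 1 value, 77.8, in the SCD list of WAT H3K9me2.

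Rap1a and Rap1b encode the 2 close Rap1 proteins. Rap1a, at chr3:105530185-105604248 on the minus strand of mm9, has 1 annotated start. It had no promoter peak in the 4 HFD lists. In the SCD lists its peak scored 129 in BAT H3K9me2, 281 in BAT H3K9me3 and 44.8 in WAT H3K9me2, the last below the lowest score of the HFD list. The 3 peaks nearly coincided: with negative positions upstream of the start, they spanned -225 to 740 bp, -268 to 720 bp and -307 to 623 bp, over exon 1. Within their lists, 71.9% of the BAT H3K9me2 peaks and 74.3% of the BAT H3K9me3 peaks scored lower.

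Rap1b, at chr10:117251527-117282991 on the minus strand, carried the highest promoter score of the 8 genes. For BAT H3K9me3 its peak scored 340.2 in HFD, against 863 in SCD. The widths were 1400 bp in HFD and 1580 bp in SCD, and 87% of the HFD list and 96.9% of the SCD list scored lower. For BAT H3K9me2 there was no peak in HFD, against 183 in SCD over a width of 1474 bp. In WAT H3K9me2 the scores were close, 66.5 in HFD and 72.9 in SCD, and the signal was in 2 pieces in each diet. The HFD pieces lay at -494 to -7 bp and 374 to 744 bp and left the start itself uncovered, whereas the SCD pieces ran from -568 to 236 bp and from 253 to 842 bp. The peaks of these 5 lists lay on the same stretch around exon 1, and neither WAT H3K9me3 list had one. Sequence upstream of both Rap1 starts is printed because each stretch lies inside a peak of every list just named for its gene, on the strand of the gene, 5′ to 3′, with CpG in capitals. The Rap1a stretch is chr3:105604249-105604473, minus strand, with 18 CpG, and the Rap1b stretch is chr10:117282998-117283247, minus strand, with 38 CpG.
Rap1a upstream: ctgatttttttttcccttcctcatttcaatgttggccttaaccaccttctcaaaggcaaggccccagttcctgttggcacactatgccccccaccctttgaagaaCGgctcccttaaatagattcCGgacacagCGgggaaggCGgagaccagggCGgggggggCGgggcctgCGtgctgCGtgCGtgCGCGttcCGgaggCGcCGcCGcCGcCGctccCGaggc
Rap1b upstream: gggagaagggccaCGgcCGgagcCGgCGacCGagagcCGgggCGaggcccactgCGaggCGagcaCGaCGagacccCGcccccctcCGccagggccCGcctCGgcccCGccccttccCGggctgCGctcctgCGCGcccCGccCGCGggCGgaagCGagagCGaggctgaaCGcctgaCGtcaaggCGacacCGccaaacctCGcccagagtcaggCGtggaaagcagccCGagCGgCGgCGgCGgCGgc

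Hras and Nras encode classical Ras proteins, the ones that feed the Raf kinases. Hras, at chr7:148375004-148379904 on the minus strand, has 7 annotated starts. It had a promoter peak in 6 lists. In BAT H3K9me3 it scored 321 in HFD against 157 in SCD, whereas Rap1b, Rras, Rras2 and Sos1 had the higher unscaled score in SCD. For Hras 85.8% of the HFD list and 54.5% of the SCD list scored lower. These shares were 87% and 96.9% for Rap1b and 78.8% and 85.7% for Rras2. They hardly differed for Rras (72.6% and 72.9%) and Sos1 (91.3% and 92.8%). For BAT H3K9me2 the scores were 58.9 in HFD and 64.9 in SCD, and for WAT H3K9me2 they were 69.2 in HFD and 144 in SCD. In those H3K9me2 lists the HFD peaks were the narrower ones, 829 bp in HFD against 1692 bp in SCD for BAT and 715 bp in HFD against 1314 bp in SCD for WAT. Both HFD H3K9me2 peaks began downstream of the most upstream Hras start, at 42 and 137 bp, whereas the SCD peaks reached -680 bp in BAT and -443 bp in WAT. The HFD list of BAT H3K9me3 held a further Hras peak of score 118 at 1548 to 2290 bp, over exons. The 4 wide Hras peaks, those of both BAT H3K9me3 lists and of both SCD H3K9me2 lists, also covered a start of the gene Lrrc56, which lies head to head with Hras, so they cannot be given to either gene alone.

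Nras, at chr3:102862152-102871837 on the plus strand, had the fewest peaks. Its only promoter peak was in the SCD list of WAT H3K9me2, with a score of 77.8, a width of 511 bp and a span of -16 to 494 bp, and 39.4% of that list scored lower. HFD WAT had none, nor had BAT in either diet for either mark.

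Rras and Rras2 encode R-Ras proteins, which resemble Ras in sequence, and R-Ras is known for its part in integrin adhesion and in vessels. Rras, at chr7:52273348-52277016 on the plus strand, was counted with a promoter peak in 4 lists. The scores were 52.2 in HFD and none in SCD for BAT H3K9me2, 188 in HFD and 269 in SCD for BAT H3K9me3, and 63.9 in HFD and none in SCD for WAT H3K9me2. All 4 peaks lay upstream of Rras, between -2292 and -1388 bp, covered 0 Rras starts and instead covered a start of the neighbouring gene Scaf1. With a window of 1 kb in place of 3 kb, Rras had no promoter peak, and 0 of 8 genes were HFD-only for H3K9me2 in BAT (12.1% of all genes) and in WAT (6.98% of all genes). No further peak lay nearer than 8607 bp to a Rras start, and the other 7 genes had no peak within 10 kb of a start outside their promoter windows and gene bodies.

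Rras2, at chr7:121190299-121261295 on the minus strand, had its WAT promoter peaks in opposite diets for the marks. For WAT H3K9me2 it had no promoter peak in HFD, against a score of 259 in SCD, where 91.8% of the list scored lower. For WAT H3K9me3 it had a score of 55.3 in HFD, where 14.7% of the list scored lower, and no peak in SCD. The H3K9me3 peak of HFD lay inside the gene at 472 to 973 bp, and the H3K9me2 peak of SCD spanned the start, from -213 to 1017 bp. In BAT the scores were 58.3 in HFD and 92.1 in SCD for H3K9me2, and 236 in HFD and 424 in SCD for H3K9me3. The BAT H3K9me2 peak of HFD ran from -393 to 397 bp and that of SCD from -160 to 949 bp.

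Sos1 and Sos2 encode the Sos exchange factors. Sos1, at chr17:80793092-80879793 on the minus strand, had promoter peaks in more lists than the other 7 genes, 7 of 8 at a score of at least 50. The scores were 51.2 in HFD and 141 in SCD for BAT H3K9me2, 433 in HFD and 594 in SCD for BAT H3K9me3, and 80.5 in HFD and 98.6 in SCD for WAT H3K9me2. For WAT H3K9me3 the start region scored 68.6 in HFD and had no peak in SCD. The position differed between the diets for BAT H3K9me2, where the HFD peak lay inside the gene at 302 to 1073 bp and the SCD peak spanned the start from -312 to 1110 bp. In WAT H3K9me2 the signal was again in 2 pieces, at -214 to 308 bp and 484 to 1016 bp in HFD, and at -321 to 340 bp and, with a score of 41.3, 367 to 861 bp in SCD. Genes with at least 2 promoter peaks in WAT H3K9me2 made up 5.38% of all genes in HFD, with Rap1b and Sos1 among them, and 6.13% in SCD, with Rap1b among them.

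A separate Sos1 region, chr17:80882009-80882768, lay at -2975 to -2216 bp, just inside the 3 kb limit. It had a peak in all 4 deposited H3K9me3 lists and in 0 of 4 H3K9me2 lists. Its scores were 64.5 in HFD and 82.9 in SCD for BAT, and 60.8 in HFD and 49.4 in SCD for WAT, with widths of 600 to 626 bp. It covered no annotated start of a protein-coding gene, and starts of other genes were not checked. The 200 bases around the middle of the part common to its 4 peaks are printed because the lists with and without a peak here split by mark, across both diets and both tissues. They are chr17:80882275-80882474, minus strand, with 23 CpG in capitals.
Sos1 upstream region: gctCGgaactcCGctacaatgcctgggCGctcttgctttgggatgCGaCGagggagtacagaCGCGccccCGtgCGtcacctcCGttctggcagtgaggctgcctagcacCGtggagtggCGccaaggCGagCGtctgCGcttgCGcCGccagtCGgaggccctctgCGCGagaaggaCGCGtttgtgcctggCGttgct

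Sos2, at chr12:70684748-70782839 on the minus strand, had no promoter peak in either HFD list of BAT. In SCD it scored 69.1 for BAT H3K9me2 (span -371 to 630 bp) and 237 for BAT H3K9me3 (span -695 to 652 bp, 68.7% of the list lower). In WAT H3K9me2 both diets had a peak, 85.3 in HFD and 109 in SCD. These WAT peaks were 555 bp wide in HFD and 380 bp in SCD and both began inside the gene, at 201 and 126 bp, so the start that the BAT peaks of SCD covered was free of a WAT peak. The 250 bases before the start, chr12:70782840-70783089, minus strand, lay within both BAT peaks of SCD and held 47 CpG, in capitals.
Sos2 upstream: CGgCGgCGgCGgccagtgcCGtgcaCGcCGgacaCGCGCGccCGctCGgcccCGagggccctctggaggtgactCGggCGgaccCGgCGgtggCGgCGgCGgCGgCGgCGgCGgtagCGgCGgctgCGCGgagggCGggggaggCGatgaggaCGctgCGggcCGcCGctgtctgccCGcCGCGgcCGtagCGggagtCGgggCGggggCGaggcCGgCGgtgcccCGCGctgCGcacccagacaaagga

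**Figure D2:**
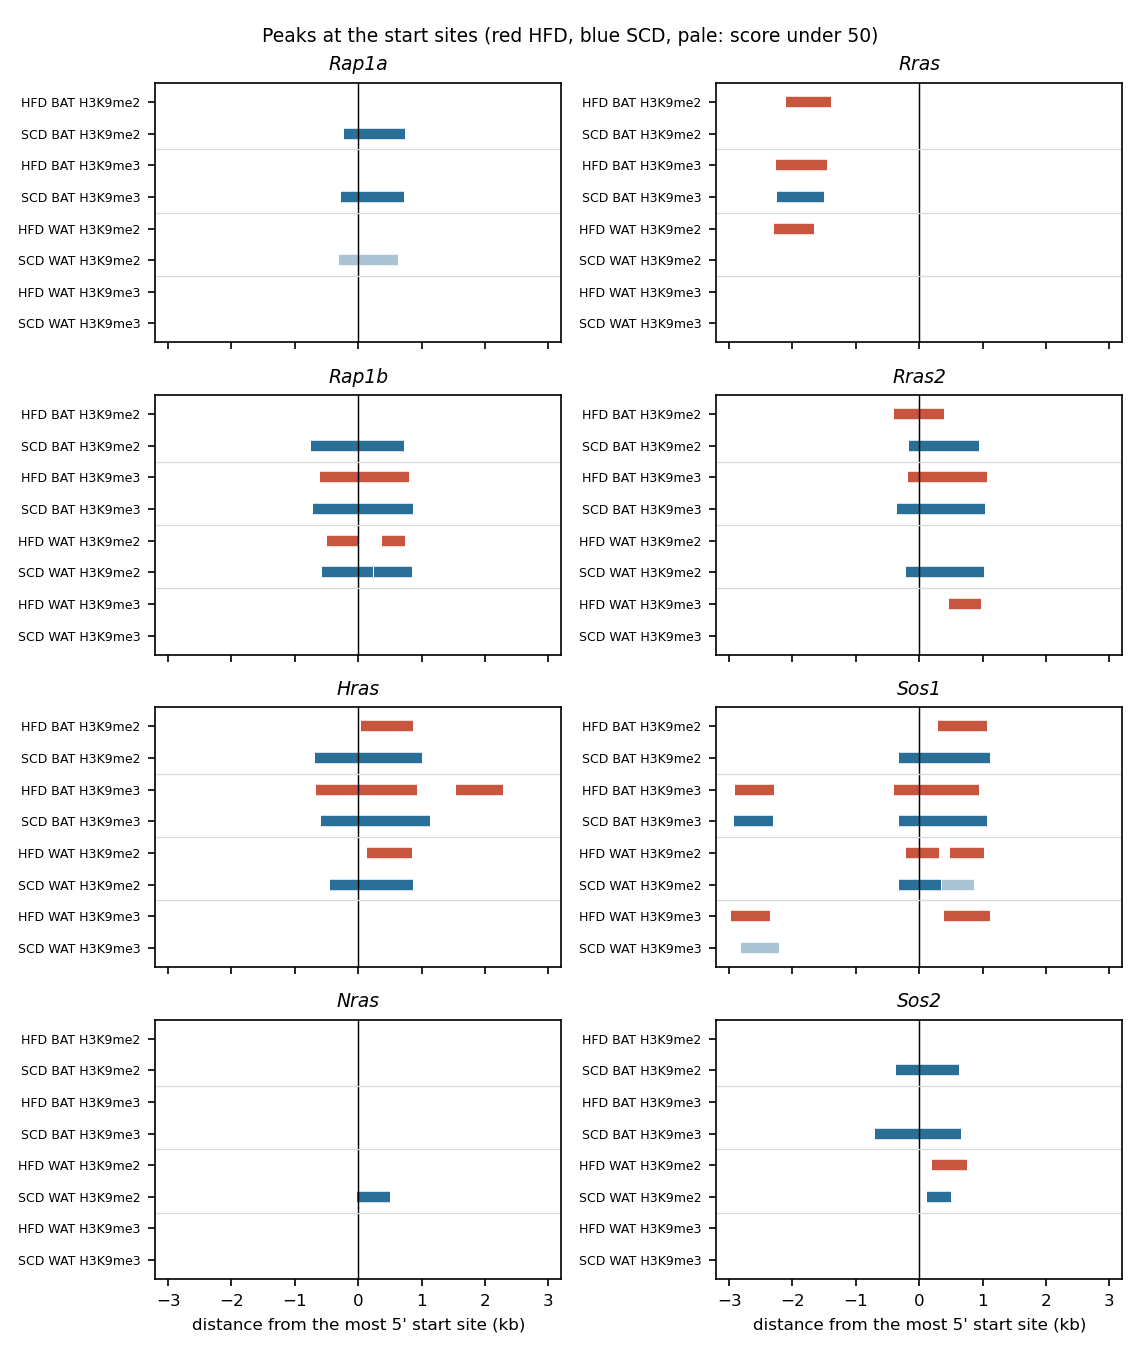
Promoter peaks of the 8 genes as bars over the distance from the most upstream start (kb, negative upstream), with 1 line for each peak list, HFD in red, SCD in blue, and pale bars for scores under 50. The 4 Rras bars lie between -2292 and -1388 bp of its start, whereas the Rap1a and Rras2 bars lie on or just after the start, and an upstream Sos1 bar appears in the H3K9me3 lines alone.

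Peaks that covered the most upstream start were wider than the median of all genes in BAT H3K9me3 and narrower in 3 of the H3K9me2 lists. In HFD 4 of the 8 genes had one, with a median width of 1370 bp, and in SCD 6 of 8 had one, with a median of 1383 bp. The medians of all genes with such a peak were 934 bp in HFD (9920 genes) and 1102 bp in SCD (9432 genes). For H3K9me2 in BAT, the 1 such peak in HFD (Rras2) was 791 bp wide, against a median of 1012 bp for all genes, and the 6 in SCD had a median of 1266 bp, against 1181 bp. For H3K9me2 in WAT, the 1 peak in HFD (Sos1) was 523 bp wide, against 773 bp, and the 5 in SCD had a median of 805 bp, against 999 bp. In WAT H3K9me3 none of the 8 genes had a peak over its most upstream start in either diet, where 4806 genes had one in HFD and 744 in SCD. When a peak had to cover a start site itself, an alternative chosen after the data were seen, 4 of 8 genes were SCD-only in WAT H3K9me2 (10.9% of all genes), namely Rap1b, Hras, Nras and Rras2.

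Inside the genes, away from the promoters, peaks were found in 3 of the 8 genes, Rras2, Sos1 and Sos2. This was near the share of all genes with such a peak in at least 1 list, 35.4%, so nothing is read from it. Rras2, Sos1 and Sos2 are 70997 to 98092 bp long, and Rras, Hras and Nras 3669 to 9686 bp. Rap1a, of 74064 bp, had no such peak. The Rras2 region stood in 7 of the 8 lists. Gene body peaks, at the same place or not, were found in at least 7 lists for 6.32% of all genes. It is chr7:121204012-121205695, in intron 1, and starts 55600 bp from the Rras2 start. Its scores were 490.1 in HFD and 560.2 in SCD for BAT H3K9me2, 697 in HFD and 113 in SCD for BAT H3K9me3, and 156 in HFD and 62.4 in SCD for WAT H3K9me3. For WAT H3K9me2 it had no peak in HFD, against 264 in SCD. In the HFD list of BAT H3K9me2, 99.3% of the peaks scored lower, and in BAT H3K9me3 97% scored lower in HFD and 42.3% in SCD. For WAT H3K9me2 its diet pattern was that of the Rras2 promoter, and for BAT H3K9me3 its order was the opposite, since the promoter scored 236 in HFD and 424 in SCD. Of 91496 merged regions in the genome, 7154 (7.82%) stood in at least 7 lists.

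Sos2 had 3 intronic regions. The one in intron 13, chr12:70709228-70709953, stood in all 4 H3K9me3 lists, with 108 in HFD and 59.5 in SCD for BAT, and 93.4 in HFD and 51.6 in SCD for WAT. Among the H3K9me2 lists it appeared in that of SCD WAT, with a score of 37.5. The H3K9me3 score at this site was the higher one in HFD in both tissues, while the Sos2 promoter had an H3K9me3 peak in SCD BAT alone. A region of intron 2, chr12:70754879-70755443, was in WAT of SCD-fed mice for both marks, with scores of 99.8 for H3K9me2 and 123 for H3K9me3, and had no peak in the HFD lists. Another part of intron 2, chr12:70756497-70757266, had a peak of 90.7 in HFD BAT H3K9me3 alone. Sos1 had 3 intronic peaks, each in 1 list, which were 75.9 in intron 13 for HFD BAT H3K9me2, 56.9 in intron 17 for HFD WAT H3K9me3 and 31.6 in intron 1 for SCD WAT H3K9me3. Rap1a, Rap1b, Hras, Nras and Rras had no gene body peak outside the promoter windows.

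**Figure D3:**
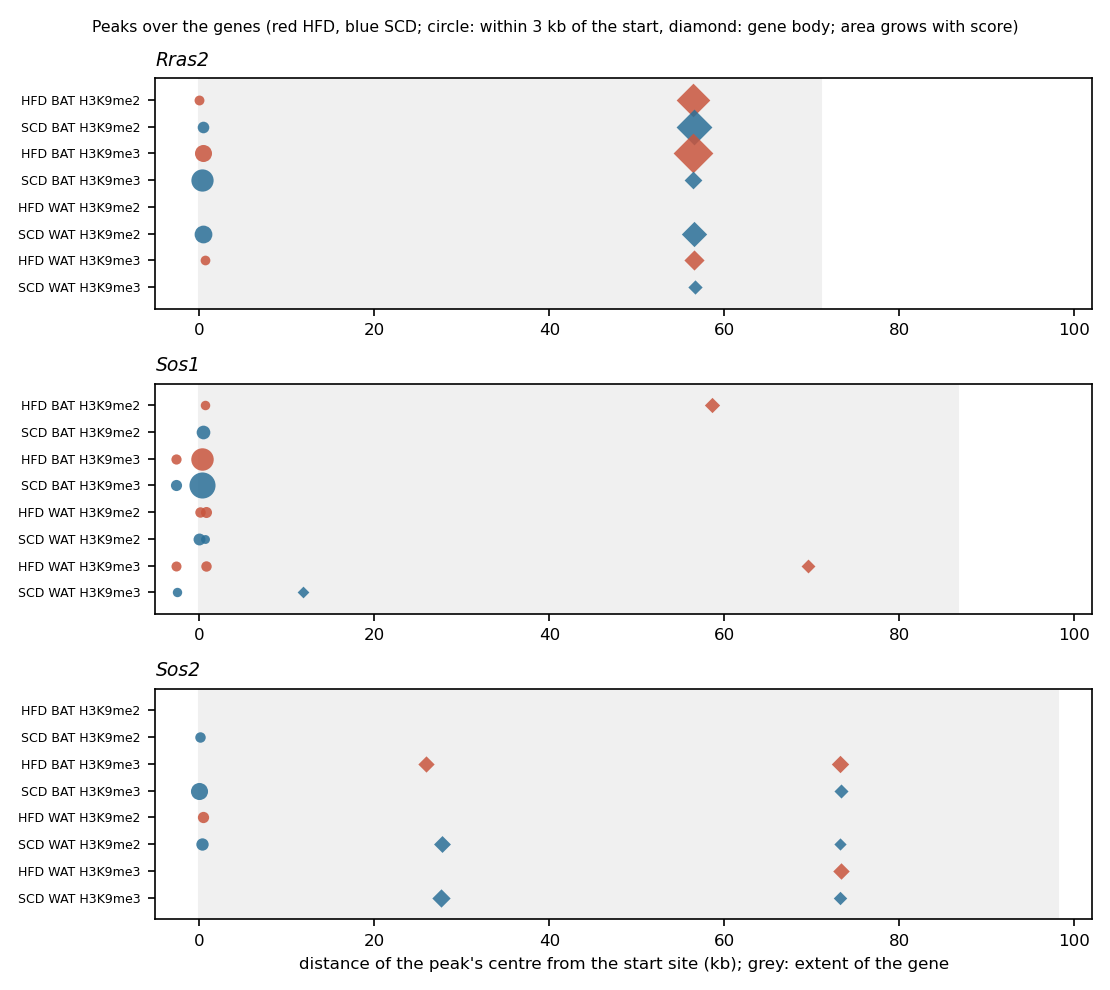
Peaks of Rras2, Sos1 and Sos2 by the distance of their centre from the start (kb), 1 line per peak list, HFD in red, SCD in blue, circles for promoter peaks and diamonds for gene body peaks, with symbol area growing with the score and the gene extent in grey. The Rras2 intron region forms a column of 7 diamonds, and the Sos2 intron 13 region a column of 5 diamonds that includes the score of 37.5 in SCD WAT H3K9me2.

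The intronic regions differed from the promoter regions in sequence. For each of the 17 merged regions of the 8 genes, the share of 12-base words that occur at least 2 times within the region was taken, a measure chosen after the data were seen. It was 68.6% in the Rras2 intron region, 87.6% in Sos1 intron 13, 61.5% in Sos1 intron 1, 53% in Sos2 intron 13 and 42.8% in the Sos2 intron 2 region of SCD WAT. The other 2 intronic regions had 10% (Sos1 intron 17) and 0% (the Sos2 intron 2 region of HFD BAT). The 10 promoter regions had at most 2.64%. The CpG frequency, observed over expected from base composition, was 0.00 to 0.52 in the intronic regions, against 0.31 to 1.00 in the promoter regions. A share of at least 20% was found in 26.5% to 53.8% of the non-promoter peaks of the 8 lists, in 2.22% to 13.2% of their promoter peaks, and in 1.48% of 255801 windows of 1 kb placed every 10 kb of the genome. Reads with several matches in the genome had been taken out before peak calling, and the part of such repeats in the scores was not tested.

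Stretches of 4 repeated regions are printed to show their units, on the strand of the gene, 5′ to 3′, with a recurring 12-base word in capitals. The Rras2 stretch, chr7:121204575-121204814, minus strand, holds 5 copies of the word, of 22 in the region. The Sos1 intron 13 stretch, chr17:80821101-80821300, minus strand, is a tandem repeat with a unit of 38 bp, in which 91.5% of the bases of the region equal those 38 bp further on, and holds 5 of 27 copies. The Sos2 intron 13 stretch, chr12:70709453-70709652, minus strand, is made mostly of GT and GGGT units. It holds 3 of 60 copies, counted with overlaps, so most copies of the marked word lie elsewhere in the region. The Sos2 intron 2 stretch, chr12:70755022-70755221, minus strand, holds 3 of 5 copies. None of the 4 overlaps an annotated exon.
Rras2 intron 1: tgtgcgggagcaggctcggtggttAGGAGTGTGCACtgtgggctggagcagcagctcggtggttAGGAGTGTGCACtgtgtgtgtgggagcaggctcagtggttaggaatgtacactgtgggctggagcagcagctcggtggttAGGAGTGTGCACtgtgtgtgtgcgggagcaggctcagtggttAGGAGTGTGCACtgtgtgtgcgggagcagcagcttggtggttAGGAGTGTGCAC
Sos1 intron 13: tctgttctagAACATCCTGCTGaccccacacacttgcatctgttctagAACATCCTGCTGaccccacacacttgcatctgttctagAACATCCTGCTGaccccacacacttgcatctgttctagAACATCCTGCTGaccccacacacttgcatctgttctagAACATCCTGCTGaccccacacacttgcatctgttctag
Sos2 intron 13: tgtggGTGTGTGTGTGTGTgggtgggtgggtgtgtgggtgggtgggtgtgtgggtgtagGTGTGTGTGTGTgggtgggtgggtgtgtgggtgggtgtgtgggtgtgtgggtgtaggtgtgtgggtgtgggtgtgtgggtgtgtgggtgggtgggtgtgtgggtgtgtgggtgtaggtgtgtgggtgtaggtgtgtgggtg
Sos2 intron 2: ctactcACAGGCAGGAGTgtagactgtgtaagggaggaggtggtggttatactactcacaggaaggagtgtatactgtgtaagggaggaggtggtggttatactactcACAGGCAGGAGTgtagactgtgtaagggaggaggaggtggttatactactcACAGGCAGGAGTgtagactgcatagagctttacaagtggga

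**Figure D4:**
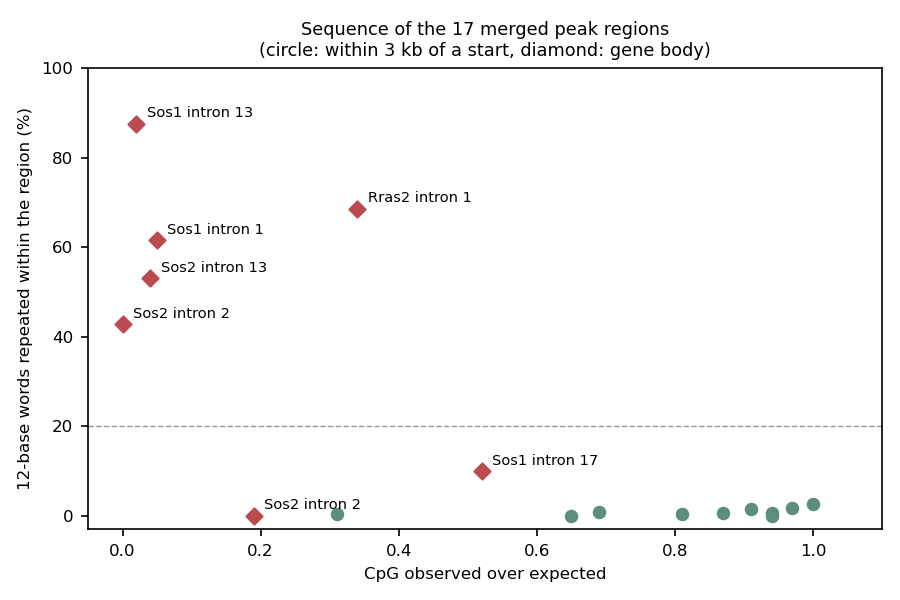
Share of repeated 12-base words (percent, vertical) against CpG observed over expected (horizontal) for the 17 merged peak regions, with circles for promoter regions and diamonds for gene body regions and a dashed line at 20%. The promoter regions lie at or below 2.64%, and 5 of the 7 intronic regions lie above the line.

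The 250 bases before the most upstream start of each gene were searched on both strands for 4 motifs. GGGCGG, the core of the GC box, was in 6 of the 8 promoters (39.6% of 22379 promoters), with 4 matches at Rap1b, 3 at Hras and at Sos2, and 2 at Rap1a, Nras and Rras2. CCAAT was in 1 of 8 (Hras, 35% of all promoters), and TATAAA was in 0 of 8 (12.3% of all promoters). TGACGTCA, the full cAMP response element, was in 1 of 8 (1.91% of all promoters), at Rap1b, inside the printed stretch. The median GC content of the 8 windows was 62.8%, against 54% for all promoters, and the median CpG ratio was 0.82, against 0.50. The 8 genes were chosen by their promoter peaks, and all promoters include those of genes without a peak. Promoter peaks had a median GC content of 59.5% to 67.4% in the 8 lists, so nothing is read from the GC, CpG and GGGCGG differences. GC content ran from 44.8% at Nras to 82.8% at Sos2.

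The number of lists with a promoter peak was 1 for Nras, 2 for Rap1a, 4 for Rras and Sos2, 5 for Rap1b, 6 for Hras and Rras2, and 7 for Sos1. Among all genes 31.8% had a promoter peak in 0 lists, 14.3% in 7 and 3.72% in 8. The pattern of presence over the 8 lists was shared with 2973 other genes for Sos1, 1037 for Hras, 550 for Rap1b, 372 for Rras2, 103 for Rras, 68 for Rap1a and 42 for Nras, and with 0 for Sos2. The Sos2 pattern holds at a score of at least 50 and includes an SCD BAT H3K9me2 peak of 69.1, which was lost at a score of at least 80. Within the same pattern, likeness was the Euclidean distance over the 8 lists of log2(best promoter score/50). The nearest genes were Ngfrap1 (distance 0.21) and Fam189a2 (0.38) for Rap1a, Reps1 (0.72) and Kremen1 (0.84) for Rap1b, Defb5 (0.02) and Pbp2 (0.03) for Nras, Snx7 (0.65) and 4931406P16Rik (0.94) for Rras2, and Btbd7 (0.66) and Tapt1 (0.67) for Sos1. Hras was nearest to Lrrc56 (0.00) and Nr6a1 (0.37), and Rras to Scaf1 (0.00) and 1700106N22Rik (0.43), where the distance of 0.00 comes from sharing the same peaks.

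Another 63 genes of Ras and Rap signaling were listed, and all were found in the annotation. For BAT H3K9me3, 53 of them had a promoter peak in both diets and 0 had one in SCD only, beside 2.16% of all genes. At so low a share a count of 0 among 63 is unremarkable, so nothing about Rap1a and Sos2 is read from it. For BAT H3K9me2, 8 of 63 were HFD-only (12.7%, beside 13.8% of all genes) and 8 SCD-only (12.7%, beside 11.5%), shares near those of all genes. The highest scores among the HFD-only genes were those of Map2k2, the gene of the ERK kinase MEK2 (141), Spred2, which encodes an inhibitor of Raf activation (97.6), and Rapgef6, a Rap exchange factor gene (73.1). Among the SCD-only genes they were those of Rapgef4, which encodes a cAMP-bound exchange factor for Rap (166), Rheb, a GTPase gene of the mTOR pathway (136), and Pik3ca, which encodes a catalytic subunit of PI3K (121).

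For WAT H3K9me2, 3 of the 63 were HFD-only (4.76%, beside 7.16% of all genes), namely Map2k1, the gene of MEK1 (161), Map2k2 (154) and the adaptor gene Frs2 (74.6). The Map2k2 peak, chr10:80568335-80569679, was at another place than that of BAT H3K9me2, chr10:80581535-80582803. A further 8 were SCD-only (12.7%, beside 10.2%), and both shares were again near those of all genes. The highest of the 8 were Spred1, a Raf inhibitor gene like Spred2 (258), Shoc2, which encodes a scaffold of Raf activation (117), and the Ras family gene Mras (116). For WAT H3K9me3, 35 of 63 were HFD-only (55.6%, beside 30.6% of all genes), 1 had a peak in both diets and 0 were SCD-only. The highest were the insulin receptor adaptor gene Irs1 (178), Rasgrf2, a Ras exchange factor gene (169), and Sipa1l1, which encodes a GTPase activator for Rap (162). The HFD-only direction of Rras2 and Sos1 for this mark was also that of these 35 genes, in a pair of lists in which the SCD list held 8350 peaks at a score of at least 50 and the HFD list 29190.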

How the data were processed

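H3K9me2 and H3K9me3 were measured by ChIP-seq in BAT and WAT of HFD-fed and SCD-fed mice, and groups were taken from the library labels. The authors cross-linked chromatin with 1% formaldehyde for 8 min. After trimming by Trim Galore, reads were placed on mm9 by Bowtie2 2.4.2, those with several matches were dropped, and MACS2 gave the peaks of each library. The use of the 4 inputs in peak calling is not given in the sources used here, and the inputs were not analysed. The score deposited by the authors has no stated unit and was taken to be the negative log10 of the peak p-value, times 10. The depth is unknown, so no interval is given.

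Starts were made 1-based. Genes and 70064 start sites came from GENCODE vM1 on assembly NCBIM37, the same build as mm9, and 0 of 261547 peaks on its chromosomes ran past a chromosome end. Peaks of both diets counted as overlapping from 1 shared bp. With 1 library per diet, tissue and mark, 4 comparisons of diets were described and none was tested. Alternatives were the deposited lists, a score of at least 80, equal numbers of highest-scoring peaks, promoters of 1 kb, 1 start per gene, a mutual overlap of 50% and, chosen after the data were seen, a peak over a start. The 8 genes and the list of 63 were chosen with earlier results of these data known. All 8 were named, with up to 3 genes of the list per direction, the 2 nearest genes by pattern, neighbouring starts and 4 motifs. Some results that this rule selected are not reported here. Python 3.11.15, NumPy 2.4.6 and matplotlib 3.10.9 were used, and the calls were tested on simulated data.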

Additional observations from a re-analysis of the deposited data

Results flagged for a closer look

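Rras2 was singled out because the diets took opposite sides for the marks in WAT. Its H3K9me3 promoter peak was in the HFD list alone, with a score of 55.29, and its H3K9me2 promoter peak in the SCD list alone, with a score of 258.76. With 1 library per group the difference was not tested. The H3K9me3 score lay near the lowest score of its list, 50, and this peak was lost when scores under 80 were dropped or when both diets had equal numbers of peaks.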

How the results depend on the processing

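The 12 counts of genes were recomputed under the alternatives, which gave 76 values, of which 58 stayed within 1.5 times the reported count and 18 did not. Only counts were compared, so a count that stayed can hold other genes, and counts of 0 that stayed 0 are among the 58. For WAT H3K9me2 the SCD-only genes were Hras and Rras2 with a score of at least 80. With the deposited lists they were Rap1a, Nras and Rras2. The 12 counts with 1 start site per gene and the 4 with a mutual overlap of 50% all stayed within it. With the deposited lists, WAT H3K9me3 had 1 gene in HFD only and 1 with overlapping peaks. After raising the lowest score to 80, the HFD-only count was 0 in BAT H3K9me2, WAT H3K9me2 and WAT H3K9me3, and the overlap count was 0 in BAT H3K9me2 and 1 in WAT H3K9me2. With equal numbers of peaks, BAT H3K9me2 had 0 genes in HFD only, 6 in SCD only and 0 overlapping, and WAT H3K9me3 had 0 in HFD only. With promoters of 1 kb, the HFD-only count was 0 in BAT H3K9me2 and in WAT H3K9me2. With a peak over a start itself, chosen after the data were seen, the HFD-only count was 0 in BAT H3K9me2, WAT H3K9me2 and WAT H3K9me3, and WAT H3K9me2 had 4 in SCD only and 1 overlapping. Some of these counts have no share of all genes beside them, among them the overlap counts and the HFD-only counts at a score of 80 or over a start. Nothing about these genes in particular is read from such counts. The shorter window removes Rras, whose peaks lie more than 1 kb from its starts, and the stricter score removes peaks by construction; other causes were not tested. No paired analysis was possible because each diet had 1 library for a given tissue and mark, and for the same reason no replicate could be left out. The lists give no depth, so a missing peak is not shown to be an absent mark.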

Other observations

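The peaks nearest to the 8 genes outside their promoter windows and bodies were at Rras. On the side of Scaf1, a region had its near edge 8607 to 9527 bp from the nearest Rras start. It covered no annotated start of a protein-coding gene and had a peak in 7 of the 8 lists at a score of at least 50. Its scores were 174 in HFD and 106 in SCD for BAT H3K9me2, 875 in HFD and 250.1 in SCD for BAT H3K9me3, and 271 in HFD and 50.4 in SCD for WAT H3K9me2. For WAT H3K9me3 it scored 82.2 in HFD and had no peak in SCD. Where both diets had a peak at this site the HFD score was the higher one, though scores are not scaled between libraries. At the Scaf1 start the BAT H3K9me3 score was 188 in HFD and 269 in SCD. Its rank was nearly the same in both diets, with 72.6% of the HFD list and 72.9% of the SCD list scoring lower. On the other side of Rras, 8751 to 8855 bp from its nearest start, a second region had H3K9me3 peaks in the HFD lists alone, with scores of 139 in BAT and 64.3 in WAT, and an H3K9me2 peak in the SCD list of WAT alone, with a score of 55.1.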
